A study of Mus musculus with 24 samples.

Results

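Pair feeding without drug was compared with free feeding without drug in brown adipose tissue of C57BL/6J mice. The comparison uses the 6 samples labelled PairFedVehicle and the 6 labelled Vehicle, which are 12 of the 24 samples of the series, taken by their columns of the deposited expression matrix. Both groups received vehicle, and they are called pair-fed and free-fed here; the label of the free-fed group names no feeding regime. The other 12 samples came from mice given TZP (6) or LAGIPRA (6), the labels' names for the dual incretin receptor agonist tirzepatide and for an agonist of the GIP receptor with long action. They entered the fit to estimate the spread between samples, and their levels are set beside those of pair-fed mice at the end. Each sample was sequenced from polyA RNA. Which drug group's intake set the food of the pair-fed mice, for how long they were fed so, and their age, sex and housing temperature are not stated in the labels. The labels also do not say that each sample came from a separate animal, so p-values measure the spread between these samples.

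In pair feeding, untreated animals receive the amount of food that a treated group eats, so that the effect of eating less can be set apart from that of the drug. Brown fat takes up glucose and fatty acids, builds fatty acids from glucose, and burns fatty acids in mitochondria that the uncoupling protein Ucp1 lets run as a source of heat. Eating less is known to lower circulating insulin and leptin; insulin drives transcription of lipid synthesis enzymes through the SREBP factors, and leptin is secreted by adipocytes in proportion to their fat.

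Marker levels were set beside the tissue label. In the 12 samples the mean of 12 brown adipocyte markers lay between 8.80 and 9.44 (log2 scale of the deposited values, used for every level below), against 3.22 to 3.82 for 10 white adipocyte markers. These are levels of different genes, the series holds no white fat sample, and only 5 of the 10 passed the filter on low values. They therefore do not identify the tissue. The brown adipocyte mean was 0.26 higher in pair-fed samples and the mean of the 8 neutrophil markers with a row 0.59 higher, with exact permutation p-values of 0.0195 and 0.00649 that both became 0.0909 after adjustment over 14 library properties. Differences in macrophage, lymphocyte, erythroid, endothelial, pericyte, fibroblast, Schwann cell and white adipocyte means had unadjusted exact permutation p-values between 0.0541 and 0.794. Skeletal muscle transcripts were nearly absent from Vehicle 1 (list mean 1.06) and PairFedVehicle 5 (0.93) and ran from 4.08 to 10.22 in the other 10 samples, and their means differed between the groups by 0.08 (exact permutation p 0.963). The dependence of the values on transcript length also differed, with slopes that differed by -0.025 (pair-fed minus free-fed, log2 value per log2 length, exact permutation p 0.013, adjusted 0.0909). In bulk tissue, fewer cells of a type and less RNA per cell cannot be told apart.

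Of 17263 genes tested, 1487 (8.61%) had an adjusted p under 0.05 and are termed called below, 856 of them higher in pair-fed samples (4.96%) and 631 lower (3.66%). The median change over all tested genes was 0.02 (log2), and values of the 6 and 6 samples did not overlap at all for 821 genes (4.76%), 416 higher (2.41%) and 405 lower (2.35%). A change of at least 1.5-fold was reached by 684 genes (3.96%), 303 higher (1.76%) and 381 lower (2.21%). Counts of called or non-overlapping genes in each list below are to be read beside these shares over all tested genes. Leaving out PairFedVehicle 1 lowered the number called higher to 523, over 1.5 times fewer. A fit of the 12 samples alone dropped the call of 26 of the 180 called genes named in the text. Those 26 are listed near the end. The largest changes were decreases, led by Fosb, Fasn, Ptx3 and Acly among genes whose mean level was at or above the median of those tested. Among increases at such levels Cfd, Gstt2 and Adtrp led, with predicted gene models passed over.

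**Figure D1:**
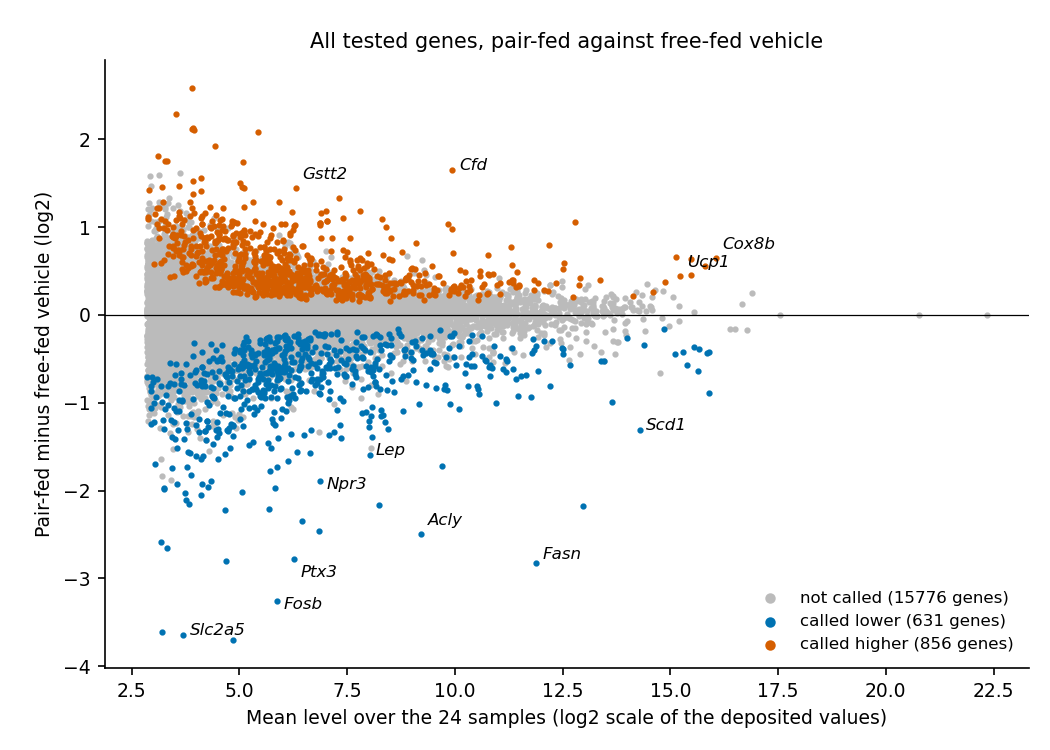
Each point is 1 of 17263 tested genes, with its mean level over the 24 samples (log2 scale of the deposited values) on the x axis and the log2 change of pair-fed over free-fed vehicle samples on the y axis. The 631 genes called lower reach further from 0 than the 856 called higher, and Fasn, Acly and Scd1 combine a high level with a large decrease.

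Genes of fatty acid and cholesterol synthesis formed the lists with the largest shares called in 1 direction, so promoter windows of their called members with the smallest p are shown first. RefSeq windows on GRCm38.p6, 250 bases before to 50 after a transcription start, were available for 9 of the 11 fatty acid synthesis genes called lower and for 9 of the 13 cholesterol genes called lower. The genome build of the expression values is not given in the sources used here. Capitals mark the CCAAT box, written CCAAT or, on the other strand, ATTGG; the Acaca window holds none. Acly lies at chr11:100527951-100528250 on the minus strand, Acss2 at chr2:155517793-155518092, Acaca at chr11:84195188-84195487, Idi1 at chr13:8885356-8885655, Nsdhl at chrX:72918271-72918570 and Lss at chr10:76531355-76531654, the last 5 on the plus strand.
Acly: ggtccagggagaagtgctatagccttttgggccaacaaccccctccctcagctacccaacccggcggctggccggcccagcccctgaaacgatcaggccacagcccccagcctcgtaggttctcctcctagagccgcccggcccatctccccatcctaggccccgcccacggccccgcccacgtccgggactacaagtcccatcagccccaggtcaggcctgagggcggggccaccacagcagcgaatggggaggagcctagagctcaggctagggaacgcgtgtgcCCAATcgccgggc
Acss2: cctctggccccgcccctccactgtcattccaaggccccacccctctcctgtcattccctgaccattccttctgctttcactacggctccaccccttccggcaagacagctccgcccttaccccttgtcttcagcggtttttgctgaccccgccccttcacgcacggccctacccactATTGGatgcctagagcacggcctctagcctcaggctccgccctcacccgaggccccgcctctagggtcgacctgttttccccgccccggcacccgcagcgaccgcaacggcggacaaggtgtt
Acaca: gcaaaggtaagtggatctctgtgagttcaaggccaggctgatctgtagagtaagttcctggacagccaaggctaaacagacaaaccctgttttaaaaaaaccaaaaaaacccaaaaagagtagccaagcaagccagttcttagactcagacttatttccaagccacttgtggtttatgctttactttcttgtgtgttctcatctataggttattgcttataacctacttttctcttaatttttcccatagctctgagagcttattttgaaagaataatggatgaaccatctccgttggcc
Idi1: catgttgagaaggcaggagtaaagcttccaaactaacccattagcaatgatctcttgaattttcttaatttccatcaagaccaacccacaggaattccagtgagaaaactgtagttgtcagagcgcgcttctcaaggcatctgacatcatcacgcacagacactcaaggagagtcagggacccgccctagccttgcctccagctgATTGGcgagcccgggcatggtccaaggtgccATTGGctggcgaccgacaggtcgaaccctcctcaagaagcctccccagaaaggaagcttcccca
Nsdhl: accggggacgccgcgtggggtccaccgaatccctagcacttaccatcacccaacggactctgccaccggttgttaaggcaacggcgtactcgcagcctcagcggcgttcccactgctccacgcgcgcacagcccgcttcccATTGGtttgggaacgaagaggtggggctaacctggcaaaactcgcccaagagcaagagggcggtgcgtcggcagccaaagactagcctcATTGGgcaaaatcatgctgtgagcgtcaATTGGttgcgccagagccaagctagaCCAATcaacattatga
Lss: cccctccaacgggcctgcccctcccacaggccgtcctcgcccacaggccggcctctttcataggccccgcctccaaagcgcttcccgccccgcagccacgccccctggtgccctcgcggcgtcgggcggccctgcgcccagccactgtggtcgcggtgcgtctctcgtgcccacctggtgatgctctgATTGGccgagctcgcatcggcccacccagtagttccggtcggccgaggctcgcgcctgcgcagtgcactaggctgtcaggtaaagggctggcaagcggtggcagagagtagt
The motifs CCAAT, TCACNCCAC and CACGTG were searched on both strands, and none contains another. A gene was counted as holding a motif if any of its windows held it, and only genes with a window were counted. CCAAT, the box bound by the factor NF-Y, occurred in all 9 cholesterol genes called lower and in 14 of 15 genes of the whole cholesterol list. It occurred in 6 of the 9 fatty acid genes called lower, against 41.06% of 27025 genes in the promoter table. TCACNCCAC, a core of sterol regulatory elements, occurred in none of the 9 and 9 genes and in 1.44% of all genes. CACGTG, the E-box, occurred in 1 of the 9 fatty acid and 2 of the 9 cholesterol genes and in 8.09% of all genes.

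Genes of most steps of fatty acid synthesis fell. Of 16 list members tested, 11 fell, none rose, and the median change was -1.24 (log2), beside 3.66% of all tested genes called lower and an overall median of 0.02. Under each of 25 alternative settings 10 or 11 of them were called. Acly, the ATP citrate lyase that makes cytosolic acetyl-CoA, had its lowest, median and highest levels at 9.27, 9.64 and 9.93 in free-fed samples and at 6.97, 7.15 and 7.28 in pair-fed samples. All 6 pair-fed samples lay below the lowest free-fed one, and the change was -2.49 ± 0.28 (log2 ± SE), 5.63-fold, with an adjusted p of 5.65e-06 (limma). Acaca, the acetyl-CoA carboxylase that commits acetyl-CoA to fat, ran at 6.81, 7.02 and 7.30 in free-fed and 4.44, 4.63 and 5.09 in pair-fed samples. Again the groups were apart, by -2.35 ± 0.30 (adjusted p 2.84e-05). Fasn, the synthase that assembles palmitate, was among the more abundant transcripts of free-fed brown fat at 12.29, 12.52 and 12.98 and stood at 9.41, 9.70 and 10.45 after pair feeding. That is 7.09-fold lower (-2.83 ± 0.37, adjusted p 2.90e-05), with no overlap between the groups.

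Genes that finish and feed this pathway fell as well. Elovl6, which lengthens palmitate, lay at 8.14, 8.44 and 8.71 in free-fed and 6.71, 7.01 and 7.42 in pair-fed samples, a change of -1.39 ± 0.27 (adjusted p 0.00199). Scd1, the delta-9 desaturase, is one of the highest values in the table and went from 14.72, 15.04 and 15.46 to 13.46, 13.86 and 14.08, a change of -1.31 ± 0.23 (adjusted p 0.000951). The related Scd2 changed more, -2.17 ± 0.23 from a free-fed median of 9.27 to a pair-fed median of 7.01 (adjusted p 4.27e-06). For each of these 3 genes the 2 groups were separate. Mir5114, a microRNA gene that lies within Scd2 on GRCm38, changed by -2.46 ± 0.25, and its reads cannot be told apart from those of Scd2. Suppliers of substrate were also lower, namely the citrate exporter Slc25a1 (-1.30 ± 0.21), the acetate-activating Acss2 (-1.26 ± 0.15) and the NADPH-producing malic enzyme Me1 (-1.22 ± 0.21), with adjusted p-values of 0.000431, 1.08e-05 and 0.000609. Thrsp, a lipogenic cofactor known as Spot 14, changed by -0.99 ± 0.21 (adjusted p 0.00489), and 1 pair-fed sample reached 13.26, inside the free-fed range of 13.21 to 13.82. Mid1ip1, its relative, was called at -0.62 ± 0.20 (adjusted p 0.0489), a call lost on leaving out any sample but Vehicle 4. Acacb, the mitochondrial carboxylase that restrains fat oxidation, differed by -0.10 ± 0.27 (adjusted p 0.88), and the elongase and desaturase genes Elovl3, Elovl5, Fads1 and Fads2 by 0.16, 0.07, -0.18 and 0.08 (adjusted p 0.798, 0.653, 0.485 and 0.753).

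**Figure D2:**
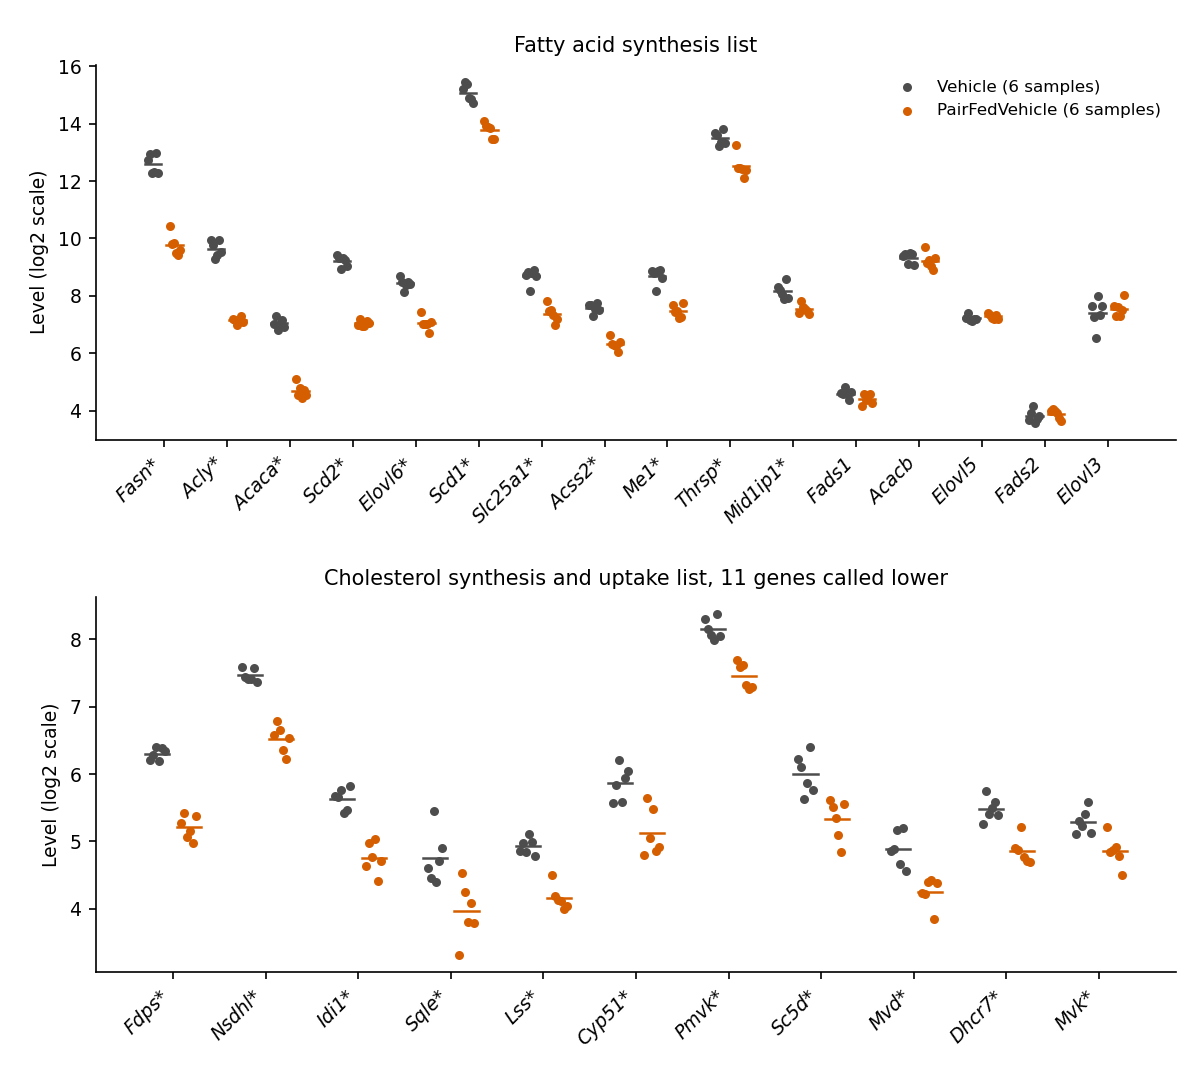
Level (log2 scale) of each gene in each of 6 Vehicle and 6 PairFedVehicle samples (points) with the group mean (line), for the 16 genes of the fatty acid synthesis list and 11 called genes of the cholesterol list; an asterisk marks an adjusted p under 0.05. Fasn, Acly, Acaca and Scd2 show the widest gaps, while Fads1, Acacb, Elovl5, Fads2 and Elovl3 overlap.

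Genes of cholesterol synthesis fell where they were called. Of 22 genes tested, 13 were lower and none higher, with a median of -0.63, beside 3.66% of all tested genes called lower. The groups did not overlap for 12 members, beside 4.76% of all tested genes. Fdps, which makes farnesyl diphosphate, lay at 6.19, 6.31 and 6.41 in free-fed and 4.98, 5.22 and 5.42 in pair-fed samples. The groups were apart and the change was -1.09 ± 0.09, 2.13-fold, at an adjusted p of 1.44e-07. Of the mevalonate and isoprenoid enzymes, Idi1 changed by -0.87 ± 0.10, Pmvk by -0.69 ± 0.11, Mvd by -0.64 ± 0.14 and Mvk by -0.44 ± 0.11, all called. Enzymes that turn squalene into cholesterol gave -0.95 ± 0.11 for Nsdhl, -0.79 ± 0.19 for Sqle, -0.76 ± 0.11 for Lss and -0.74 ± 0.14 for Cyp51. Dhcr7 (-0.62 ± 0.11) and Sc5d (-0.67 ± 0.15), which act near the end of the path, were also lower. Hmgcs1, at the entry of the pathway, lay at 8.55, 8.69 and 8.97 in free-fed and 8.51, 8.95 and 9.10 in pair-fed samples and differed by 0.16 ± 0.13 (adjusted p 0.506). Fdft1, squalene synthase, differed by 0.26 ± 0.20 (adjusted p 0.464). The difference in change between called and uncalled members was not tested.

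Genes of the transcription factors over these pathways and their partners changed by less than 1 on the log2 scale where called. Insig1, which holds SREBP in the endoplasmic reticulum and is itself an SREBP target, fell by 0.81 on the log2 scale (adjusted p 0.00018) with no overlap. Pnpla3, another lipogenic target gene, changed by -0.76 ± 0.19 (adjusted p 0.0117). Srebf1, which encodes SREBP1, was 0.30 ± 0.09 higher (adjusted p 0.036), a call lost without Vehicle 1, 3 or 6 or PairFedVehicle 1, 2 or 3. Nr1h3, the liver X receptor alpha, was 0.25 ± 0.05 higher without overlap (adjusted p 0.00255). Mlxipl, which encodes the glucose-sensing factor ChREBP, differed by 0.15 ± 0.15 (adjusted p 0.611). Of the 13 genes in this list 2 rose and 3 fell, the third that fell being Srebf2 (-0.34 ± 0.10), whose call was lost without any 1 of 8 samples, Vehicle 1, 2, 3 or 6 or PairFedVehicle 1, 3, 5 or 6.

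Genes of glucose use fell at several steps. Of 20 glycolysis and lactate carrier genes, 9 fell and 1 rose, with a median of -0.33, beside 3.66% of all tested genes called lower. Between 6 and 11 were called lower when 1 sample was left out. Reads of Eno1, Gapdh, Ldha, Pgam1 and Pgk1 may be shared with near-identical processed pseudogenes, so their values are uncertain. Pkm, pyruvate kinase, lay at 10.19, 10.36 and 10.48 in free-fed and 9.47, 9.70 and 9.995 in pair-fed samples. The groups were apart and the change was -0.66 ± 0.09 (adjusted p 2.71e-05). Eno1, enolase, changed by -0.84 ± 0.14 and Ldha, lactate dehydrogenase, by -0.54 ± 0.10, both without overlap (adjusted p 0.000483 and 0.000951). Gapdh (-0.48 ± 0.11), the phosphofructokinase gene Pfkp (-0.49 ± 0.12) and Gpi1 (-0.40 ± 0.10) were lower with some overlap. The 1 gene that rose was Pfkfb3, which makes the activator of phosphofructokinase, at 5.94, 6.29 and 6.55 against 6.67, 6.96 and 7.43. It changed by 0.79 ± 0.19 (adjusted p 0.0103) with the groups apart.

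Of 6 hexose transporter genes tested 2 were called lower and 1 higher, and the fructose carrier Slc2a5 had the largest change among them. Its free-fed levels were 2.95, 4.11 and 4.92 and its pair-fed levels 0.23, 0.34 and 0.71, with no overlap and an adjusted p of 4.28e-05. The pair-fed levels lie under the value taken for 1 read in those libraries (1.015 to 1.262), so no fold is given. Slc2a4, the insulin-responsive glucose carrier, differed by -0.24 ± 0.17 (adjusted p 0.433) and ran at 5.48, 5.74 and 6.34 and 5.21, 5.56 and 5.95, which overlap. Slc2a1, the widely expressed glucose carrier, changed by -0.44 ± 0.13 (adjusted p 0.0342) with overlap, and lost the call without Vehicle 1, 3 or 6 or PairFedVehicle 1, 2 or 3. Slc2a8, an intracellular hexose carrier, was called higher (0.27 ± 0.08, adjusted p 0.0447) with overlap, and lost the call without any 1 sample other than Vehicle 5 or PairFedVehicle 5. In the pentose phosphate pathway, the NADPH-yielding Pgd fell by 0.84 on the log2 scale (adjusted p 0.00141) and transketolase, Tkt, changed by -0.92 ± 0.23 (adjusted p 0.0147, 0.0535 on leaving out Vehicle 1 and PairFedVehicle 5). With G6pdx (-0.31 ± 0.09, lost without Vehicle 1, 2, 4 or 6 or PairFedVehicle 2, 3, 4 or 6) these made 3 of 10 genes called lower, and Pgls (0.36 ± 0.08) was called higher; without Vehicle 1 and PairFedVehicle 5 only 1 was called lower. Glycogen metabolism had 3 of 16 genes called lower, the liver-type phosphorylase Pygl (-0.87 ± 0.23), glycogen synthase Gys2 (-0.76 ± 0.17) and branching enzyme Gbe1 (-0.54 ± 0.14), and 5 without PairFedVehicle 6.

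Some genes for taking up, storing and releasing fat rose. Slc27a2, a fatty acid transporter and very-long-chain acyl-CoA synthetase, lay at 6.92, 7.28 and 7.78 in free-fed and 8.20, 8.42 and 9.02 in pair-fed samples. No sample of one group entered the range of the other, and the change was 1.18 ± 0.16, 2.27-fold (adjusted p 5.84e-05). Slc27a1, a transporter of the same family, rose by 0.73 ± 0.11 (adjusted p 0.000149), and Vldlr, the receptor for triglyceride-rich lipoprotein, by 0.54 ± 0.11 (adjusted p 0.00239). With Apoe (0.49 ± 0.13) and Fabp4 (0.27 ± 0.08), 5 of 16 genes rose in this list and 1 fell, and 3 rose without Vehicle 3 or PairFedVehicle 1; Fabp4 lost its call without Vehicle 1, 2 or 4 or PairFedVehicle 2 or 3 too. The 1 that fell was Angptl4, which inhibits lipoprotein lipase, at -0.55 ± 0.16 (adjusted p 0.0288), a call lost without Vehicle 2 or 6 or PairFedVehicle 3 or 6. Lpl, the lipase itself, differed by -0.02 ± 0.11 (adjusted p 0.958) around a level near 12.9 in both groups.

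In triglyceride synthesis 5 of 14 genes rose and none fell (3 without Vehicle 1, Vehicle 3 or PairFedVehicle 1), with a median of 0.11. The acyltransferase genes Gpat3 and Gpat4, which start glycerolipid assembly, changed by 0.77 ± 0.14 and 0.53 ± 0.10, each without overlap (adjusted p 0.00118 and 0.0023). The glycerol channel Aqp7 rose by 0.37 ± 0.08 (adjusted p 0.00477), and Dgat1 (0.35 ± 0.09) and Pck1 (0.59 ± 0.17) were the other 2, whose calls were lost without Vehicle 1 or 3 or PairFedVehicle 1, that of Dgat1 also without PairFedVehicle 6 and that of Pck1 without Vehicle 6 or PairFedVehicle 2 or 3. Among 16 lipolysis and lipid droplet genes 3 rose and 1 fell, the droplet coat gene Plin3 (-0.34 ± 0.09). G0s2, an inhibitor of the triglyceride lipase, was abundant and went from 11.94, 12.22 and 12.86 to 12.99, 13.32 and 13.63. Its change was 1.05 ± 0.16, 2.08-fold (adjusted p 0.000174), and the groups were separate. Pnpla2, the lipase that G0s2 inhibits, rose too, by 0.56 ± 0.12 (adjusted p 0.00385). Lipe and Plin1, the hormone-sensitive lipase and the droplet coat protein it docks on, differed by 0.06 ± 0.10 and -0.02 ± 0.11 (adjusted p 0.758 and 0.928).

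Some genes of fat oxidation rose. Of 20 genes of mitochondrial fat oxidation 3 rose, Acot2 (0.71 ± 0.18, adjusted p 0.0508 without PairFedVehicle 1), Eci1 (0.46 ± 0.11) and Eci2 (0.34 ± 0.07), and 18 of the 20 changes were above 0, with a median of 0.20; 6 were called higher without PairFedVehicle 5. Acsl5, an acyl-CoA synthetase, was the 1 called lower (-0.56 ± 0.16), and it kept no call without Vehicle 1, 2, 4 or 6 or PairFedVehicle 1 or 3. Cpt1b, the carnitine acyltransferase that admits fatty acids to brown fat mitochondria, differed by 0.25 ± 0.11 (adjusted p 0.143). Ehhadh, the bifunctional enzyme of peroxisomal oxidation, lay at 5.98, 6.83 and 7.32 in free-fed and 7.47, 7.58 and 8.35 in pair-fed samples. It was 2.03-fold higher (adjusted p 0.00452) and the only called gene of 16 peroxisomal ones, though up to 3 were called when 1 sample was left out (3 without PairFedVehicle 5, 2 without Vehicle 4, Vehicle 5 or PairFedVehicle 4).

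Some genes of amino acid breakdown were called. Of 22 genes for branched-chain amino acids 4 rose and 1 fell, beside 4.96% of all tested genes called higher and 3.66% lower. The median was 0.14, and 20 of the 22 changes were above 0. Hsd17b10, a mitochondrial dehydrogenase of isoleucine breakdown, rose from 8.22, 8.45 and 8.62 to 8.87, 9.11 and 9.63, without overlap. The change was 0.71 ± 0.10 (adjusted p 0.000125). Pccb, a subunit of propionyl-CoA carboxylase, rose by 0.36 ± 0.09 (adjusted p 0.0148, and 0.0583 in the fit of the 12 samples alone). The calls of Aldh6a1 (0.45 ± 0.14), Bcat2 (0.24 ± 0.07) and of Bcat1, the 1 that was lower (-0.77 ± 0.24), were each lost without Vehicle 1, 3 or 6 or PairFedVehicle 1, 3 or 6, among other samples. Mcee, methylmalonyl-CoA epimerase, differed by 0.18 ± 0.09 (adjusted p 0.223). Prodh, which opens proline breakdown, rose by 0.92 ± 0.18 from a free-fed median of 2.82 to a pair-fed median of 3.54 (adjusted p 0.00255), the 1 called among 15 proline, glutamate and other amino acid genes. None of 12 amino acid transporter genes was called by limma, and 2 had an unadjusted p under 0.05.

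Calls among respiratory chain genes were few, as were those among all tested genes (4.96% higher and 3.66% lower). Among 37 complex I subunit genes 3 rose, Ndufv1 (0.39 ± 0.09), Ndufa13 (0.52 ± 0.13) and Ndufb3 (0.31 ± 0.08, lost without PairFedVehicle 1 or 3), and none fell. Of the 37 changes 34 were above 0, with a median of 0.15. The count that rose was 5 without Vehicle 5 and 1 in the fit of the 12 samples alone. In that fit Ndufa13 (adjusted p 0.0606) and Ndufb3 lost their calls. Of 41 genes of complexes II to V and cytochrome c 2 rose, and both encode subunit 8 of cytochrome oxidase. Cox8a lay at 15.14, 15.23 and 15.39 in free-fed and 15.62, 15.91 and 16.21 in pair-fed samples. The groups did not meet, and Cox8a changed by 0.64 ± 0.08, 1.56-fold (adjusted p 3.25e-05). Cox8b, its muscle and brown fat form, changed by 0.65 ± 0.14 (adjusted p 0.00494), with ranges that meet at 16.09. Values this high take few distinct steps, and Cox8a and Cox8b each have 9 distinct values in 12 samples. Their changes, SEs and ranges are therefore coarse. None of 16 citrate cycle genes was called by limma, and 1 had an unadjusted p under 0.05. In pyruvate dehydrogenase control only the kinase Pdk2 was called, at 0.39 ± 0.11 (adjusted p 0.0267), a call lost without Vehicle 1, 3 or 6 or PairFedVehicle 1 or 3. Pdk4, a kinase known to rise in fasting in many tissues, differed by -0.10 ± 0.20 (adjusted p 0.833). In the mitochondrial ribosome 1 of 76 genes was called, Mrps6, lower by 0.84 on the log2 scale (adjusted p 5.65e-06), and 2 were called lower without Vehicle 2 or PairFedVehicle 1 or 6. Of 34 import and carrier genes 2 fell, the citrate carrier Slc25a1 given above and the dicarboxylate carrier Slc25a10 (-1.04 ± 0.16), and 2 rose, Slc25a34 (0.88 ± 0.21) and the coenzyme A carrier Slc25a42 (0.52 ± 0.15), of which 1 remained called without Vehicle 1, 3 or 6 or PairFedVehicle 1, 2 or 3.

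Ucp1, at 14.70, 14.90 and 15.14 in free-fed and 15.09, 15.39 and 15.51 in pair-fed samples, was slightly higher after pair feeding. The ranges touch at 15.09 to 15.14, the change was 0.45 ± 0.12, 1.36-fold, and its adjusted p of 0.0208 rose to at most 0.0705 without Vehicle 3 or without Vehicle 1 and PairFedVehicle 5 together. Values at the top of the table take few distinct steps, and Ucp1 has 9 distinct values in 12 samples. Of 18 thermogenic effector genes 3 rose, Ucp1, Cox8b and the lipid droplet protein Cidea (0.40 ± 0.11, lost without Vehicle 1, 3 or 6 or PairFedVehicle 1, 2 or 3), and none fell; only 1 rose without Vehicle 3 and 5 without PairFedVehicle 5. Dio2, the deiodinase that activates thyroid hormone on cold exposure, and Ppargc1a, the coactivator of mitochondrial genes, differed by -0.02 ± 0.38 and -0.02 ± 0.30 (adjusted p 0.982 and 0.981). Zic1, a transcription factor gene that marks interscapular brown fat, rose from 5.14, 5.27 and 5.52 to 5.62, 6.31 and 6.51. That difference of 0.87 ± 0.16 (adjusted p 0.00174) had no overlap, and with Ucp1, Cox8b and Cidea they made 4 of 12 brown adipocyte markers called higher, 2 without Vehicle 3.

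Calls among genes of noradrenaline signalling were few, but so were those among all tested genes (8.61%), and the lists are short. None of 8 adrenoceptor genes was called by limma, and 3 had an unadjusted p under 0.05; Adrb3, the beta-3 receptor of adipocytes, differed by -0.07 ± 0.12 (adjusted p 0.77) and Adrb1 by 0.30 ± 0.10 (adjusted p 0.0768). Of 23 genes of cAMP signalling 1 rose, the mitochondrial kinase anchor Akap1 (0.52 ± 0.13), and 1 fell, the phosphodiesterase Pde4b (-0.60 ± 0.14); up to 2 were called in each direction when 1 sample was left out (higher without Vehicle 5 or PairFedVehicle 5, lower without Vehicle 2, Vehicle 5 or PairFedVehicle 6). Npr3, the receptor that clears natriuretic peptides, fell. It lay at 7.11, 7.50 and 7.86 in free-fed and 5.09, 5.61 and 5.92 in pair-fed samples, and no sample of one group entered the range of the other. The change of -1.89 ± 0.15 was 3.7-fold (adjusted p 4.90e-08). Gipr, the receptor that both drugs of the series act on, lay near the low end of the tested range at 2.81, 2.89 and 3.50 and 2.41, 3.06 and 3.38 and differed by -0.02 ± 0.19 (adjusted p 0.977). Pth1r, the parathyroid hormone receptor, was the 1 called of 4 incretin-related class B receptor genes (0.51 ± 0.11, adjusted p 0.00507).

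Adipokine genes split. Lep, leptin, lay at 8.30, 8.55 and 9.13 in free-fed and 6.39, 6.99 and 7.64 in pair-fed samples. Every pair-fed sample was lower, and Lep changed by -1.59 ± 0.21, 3.02-fold (adjusted p 3.13e-05). Cfd, which encodes the complement protease adipsin, was higher, at 8.87, 9.42 and 9.63 and 10.10, 11.08 and 11.82. It was 3.14-fold higher (1.65 ± 0.27, adjusted p 0.000406), again without overlap. Rbp4, the retinol carrier, fell by 1.15 on the log2 scale without overlap (adjusted p 0.000107) and Apln, apelin, by 1.31 (adjusted p 0.0194, lost without PairFedVehicle 6). Adipoq, adiponectin, differed by 0.20 ± 0.09 (adjusted p 0.188). Of 12 adipokine genes tested 4 were called lower and 1 higher.

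Of 19 insulin signalling genes 4 fell and none rose. Socs3, a feedback inhibitor of cytokine and insulin receptors, lay at 5.21, 6.04 and 6.87 in free-fed and 3.83, 4.85 and 5.15 in pair-fed samples. The highest pair-fed sample stayed under the lowest free-fed one, and the change was -1.49 ± 0.37 (adjusted p 0.0128). Pik3r1, the regulatory subunit of PI3-kinase, fell by 1.08 on the log2 scale and Grb14, an adaptor that inhibits the insulin receptor, by 0.87, both without overlap (adjusted p 9.46e-05 and 1.86e-05). Gsk3b was the fourth (-0.40 ± 0.11), with a call lost without any 1 of 7 samples, Vehicle 2, 3 or 4 or PairFedVehicle 1, 2, 5 or 6. Insr and Irs2, the receptor and a substrate whose gene FoxO factors are known to raise, differed by -0.26 ± 0.31 and 0.58 ± 0.25 (adjusted p 0.683 and 0.16). In the list of FoxO and starvation-responsive genes 3 of 18 rose and 1 fell. Bnip3, a mitophagy receptor, rose from 7.90, 8.19 and 8.46 to 8.90, 9.03 and 9.30. It changed by 0.88 ± 0.12 without overlap (adjusted p 4.70e-05). Klf15 (0.75 ± 0.20) and the autophagy gene Gabarapl1 (0.44 ± 0.13) also rose, Gadd45a (-0.66 ± 0.15) fell, and only Bnip3 of the 3 stayed called without Vehicle 3; Klf15 also lost its call without PairFedVehicle 3 and Gabarapl1 without Vehicle 1 or 2 or PairFedVehicle 1 or 6. Of 10 thyroid hormone genes and targets 3 fell, Me1, Thrsp and the corepressor gene Hr (-0.67 ± 0.10, adjusted p 0.000161); the receptor gene Thra was called higher (0.35 ± 0.10), but not without any 1 of Vehicle 1, 3 or 6 or PairFedVehicle 1 to 4.

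Clock genes changed in both directions. Dbp and Tef, output genes of the clock, rose by 0.91 ± 0.20 and 0.48 ± 0.11 (adjusted p 0.00648 and 0.00622), and Arntl, Cry1 and Nfil3, which are known to peak at other times, changed by -0.59 ± 0.14, -0.55 ± 0.15 and -0.74 ± 0.20 (adjusted p 0.0103, 0.0269 and 0.0192). Those 5 were the called genes of 18, and in the fit of the 12 samples alone 1 was called lower. Cry1 lost its call without Vehicle 2 or 5 or PairFedVehicle 3, 4 or 5, and Nfil3 without Vehicle 6 or PairFedVehicle 2. The time of day of tissue collection is not given in the sources used here, and its part in the result was not tested. Among 17 glucocorticoid-responsive genes 1 rose, Sult1a1 (0.44 ± 0.13, lost without Vehicle 1, 2, 3 or 6 or PairFedVehicle 1, 3, 5 or 6), and Angptl4 and Lcn2 fell. Leaving out 1 sample gave 0 to 3 called higher and 1 to 3 called lower. Of the 17 genes 11 had an unadjusted p under 0.05 by limma, as did 3977 of all 17263 tested genes. Fkbp5, a standard target of the glucocorticoid receptor, differed by -0.09 ± 0.22 (adjusted p 0.863) and Per1 by 0.81 ± 0.27 (adjusted p 0.0665).

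Immediate early genes, which are transcribed within minutes of a stimulus, fell where they were called. Of 18 tested 6 fell and none rose, with a median of -0.36. Fosb, a component of the AP-1 factor, had the largest decrease of any gene at or above the median level, from 6.001, 7.69 and 8.18 to 2.33, 4.12 and 5.48. The ranges stayed apart and the change was -3.25 ± 0.51, 9.54-fold (adjusted p 0.000246). Jund, another AP-1 gene, changed by -0.53 ± 0.10 and Junb by -0.69 ± 0.17 (adjusted p 0.00189 and 0.0141). Egr1, Egr3 and Fosl2 were the other 3, at -1.08 ± 0.32, -0.89 ± 0.26 and -0.70 ± 0.21; each lost its call without Vehicle 6 or PairFedVehicle 1 or 6, which left 3, and without several other samples, as with the replicate number as a block. Fos itself differed by -0.46 ± 0.38 (adjusted p 0.527). Arc, an activity-regulated gene not in that list, lay at 6.13, 7.13 and 7.69 in free-fed and 4.64, 4.90 and 5.78 in pair-fed samples. Its change was -1.97 ± 0.36 (adjusted p 0.0012) with the groups apart.

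Cytosolic heat shock genes fell where called, and most called glutathione genes rose. Of 18 cytosolic heat shock genes 4 fell and none rose, with a median of -0.29: Hsp90aa1 (-0.43 ± 0.10), Hsp90ab1 (-0.30 ± 0.08), Hsph1 (-0.73 ± 0.16) and Hspb1 (-0.52 ± 0.15, lost without Vehicle 2, 4 or 5 or PairFedVehicle 1, 2 or 4). Of 21 glutathione genes and targets of the factor NRF2, 6 rose and 1 fell. Gstt2, a glutathione transferase, lay at 5.70, 5.88 and 6.03 in free-fed and 7.03, 7.35 and 7.52 in pair-fed samples. Every pair-fed sample exceeded every free-fed one, and the change of 1.44 ± 0.09 was 2.72-fold (adjusted p 2.84e-09). Its neighbours in the family, Gstt1 (0.54 ± 0.12) and Gstt3 (0.41 ± 0.13), the secreted glutathione peroxidase Gpx3 (0.80 ± 0.14), Gsto1 (0.25 ± 0.06) and Mgst1 (0.31 ± 0.09) were the other 5; Mgst1 lost its call without Vehicle 3 or PairFedVehicle 1 or 3, and Gstt3 without any 1 of Vehicle 1, 2, 3, 4 or 6 or PairFedVehicle 2 to 5. Srxn1, sulfiredoxin, was the 1 that fell (-0.53 ± 0.13, adjusted p 0.0105). Alas1, the first enzyme of heme synthesis, fell by 0.81 on the log2 scale, from 10.40, 10.66 and 10.85 to 9.63, 9.82 and 10.11. The groups were separate (adjusted p 5.65e-06). Of 20 endoplasmic reticulum chaperone and unfolded protein genes 1 was called, Edem1 (-0.44 ± 0.12); none was without Vehicle 1, 3 or 6 or PairFedVehicle 1, 3 or 6, while 3 were without Vehicle 5 and 4 without PairFedVehicle 5. Of 17 ATF4 targets Psat1, an enzyme of serine synthesis, fell (-0.57 ± 0.13, adjusted p 0.00776), and Vldlr and Sesn2 (0.49 ± 0.15) rose, Sesn2 losing its call without Vehicle 1, 2, 3 or 6 or PairFedVehicle 1, 2 or 4.

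Collagen, matricellular and crosslinking genes fell where called, while matrix proteases and their inhibitors moved both ways. Of 23 matricellular and crosslinking genes 10 fell and none rose, beside 3.66% of all tested genes called lower. The median was -0.56, with 22 of 23 changes below 0. Thbs1, a thrombospondin that activates TGF-beta, lay at 6.75, 7.27 and 7.80 in free-fed and 5.10, 5.59 and 6.04 in pair-fed samples. It was 3.31-fold lower without overlap (-1.73 ± 0.32, adjusted p 0.00163). Sparc, a collagen-binding protein, changed by a smaller amount with little scatter, from 11.41, 11.50 and 11.60 to 10.84, 10.99 and 11.08. The change was -0.53 ± 0.06 and the groups were apart (adjusted p 9.13e-06). Serpinh1, the collagen chaperone, and P4ha1 and P4ha2, the prolyl hydroxylases of collagen, fell by 0.61, 0.65 and 0.62 on the log2 scale (adjusted p 0.000126, 0.00469 and 0.0017), and the crosslinking oxidase Lox by 0.56 (adjusted p 0.00871). Tnc, tenascin C, changed by -1.27 ± 0.30 (adjusted p 0.00992) with overlap. Among 19 collagen genes 5 fell and none rose, with a median of -0.50 and 18 of 19 changes below 0; Col12a1 (-0.92 ± 0.18) and Col5a3 (-0.86 ± 0.18) fell without overlap, and Col8a1 (-0.54 ± 0.16), Col14a1 (-0.70 ± 0.20) and Col18a1 (-0.70 ± 0.19) were the other 3. The abundant fibrillar genes Col1a1 and Col3a1 differed by -0.47 ± 0.36 and -0.44 ± 0.30 (adjusted p 0.465 and 0.424). The collagen count was 2 without Vehicle 3 or PairFedVehicle 1, 3 or 6, 3 without Vehicle 1, 2 or 6, and 8 without Vehicle 5. Of 17 matrix metalloproteases and inhibitors 2 rose and 3 fell, with a median of -0.16. Those that rose were Timp4, an inhibitor of these proteases, by 0.64 ± 0.16 and Mmp11 by 0.63 ± 0.15 (adjusted p 0.0123 and 0.00963), both with overlap. Whichever sample was left out, no more than 2 were called lower, and 1 without Vehicle 2 or PairFedVehicle 1 or 3. The mean of 11 fibroblast markers ranged from 6.48 to 7.06 in free-fed and from 6.25 to 6.87 in pair-fed samples (exact permutation p 0.104), and its part in the matrix result was not tested.

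In most inflammatory and immune lists most changes were below 0. Below 0 were 16 of 17 MHC and antigen presentation genes (1 called lower) and 18 of 22 chemokine and cytokine genes (2 called lower). So were 14 of 18 interferon-stimulated genes (1 called higher), 13 of 15 macrophage markers and 11 of 13 complement and acute phase genes. Over all 17263 tested genes 8064 were. Leaving out 1 sample gave 0 to 1 interferon, 1 to 2 chemokine and 1 to 3 MHC calls. Of 6 neutrophil markers 5 changes were above 0. Ptx3, a secreted pattern recognition protein, lay at 6.85, 7.75 and 8.52 in free-fed and 4.08, 5.06 and 5.45 in pair-fed samples. The groups did not overlap, and the change was -2.78 ± 0.31, 6.89-fold (adjusted p 5.65e-06). Ch25h, which makes 25-hydroxycholesterol, changed by -1.66 ± 0.22 (adjusted p 3.79e-05) and the chemokine gene Cxcl1 by -1.64 ± 0.34 (adjusted p 0.00417), both apart. Among 13 complement and acute phase genes 4 fell, Lcn2 (-1.19 ± 0.28), Saa3 (-1.32 ± 0.32), Orm1 (-0.76 ± 0.16) and Hp (-0.44 ± 0.11), and Cfd rose, with a median of -0.43. S100a9, a calcium-binding protein of neutrophils, rose from 4.71, 5.80 and 6.39 to 6.64, 7.08 and 7.25. It changed by 1.29 ± 0.20 without overlap (adjusted p 0.000317), while S100a8, its partner, differed by 0.54 ± 0.26 (adjusted p 0.215). Of the 6 neutrophil markers tested, S100a9 was called higher and Lcn2, which adipocytes also make, lower; the list mean ranged from 2.95 to 3.64 in free-fed and from 3.48 to 4.11 in pair-fed samples, and its part in these results was not tested. Ighm, the constant region of immunoglobulin M, fell from 9.98, 10.25 and 11.28 to 8.26, 8.57 and 9.14. That is 3.29-fold (-1.72 ± 0.17, adjusted p 1.54e-06), with no overlap. The B cell genes Cd79a and Cd79b lay near 3 and differed by 0.22 ± 0.36 and 0.17 ± 0.26 (adjusted p 0.769 and 0.765), and none of 6 lymphocyte, 15 macrophage or 9 erythroid markers tested was called by limma, with 0, 3 and 1 at an unadjusted p under 0.05. Cldn5, the endothelial tight junction protein, changed by -0.73 ± 0.13 (adjusted p 0.000935) without overlap, while the mean of 14 endothelial markers differed by -0.02 (exact permutation p 0.688) and Tie1, an endothelial receptor, rose by 0.27 ± 0.06 (adjusted p 0.00886).

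Few genes of protein synthesis and turnover were called, beside 8.61% of all tested genes. None of 75 cytosolic ribosomal protein genes and none of 24 translation factor and ribosome biogenesis genes was called by limma, with medians of 0.02 and -0.01 and 4 and 0 at an unadjusted p under 0.05. Of 32 proteasome genes 2 rose, Psma6 (0.17 ± 0.05) and Psmd4 (0.23 ± 0.07), and none was called without Vehicle 1, 2 or 6 or PairFedVehicle 1, 3, 4 or 6 (1 without Vehicle 5 or PairFedVehicle 2). Among autophagy and lysosome genes Gabarapl1 alone of 20 was called, and among genes of mTOR and energy sensing Sesn2 alone of 18. None of 23 cell division genes was called by limma, at a median of -0.39 and with 4 at an unadjusted p under 0.05; Mki67, the proliferation marker, lay at 3.49, 4.74 and 5.09 in free-fed and 2.42, 3.77 and 4.26 in pair-fed samples (adjusted p 0.0548).

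**Figure D3:**
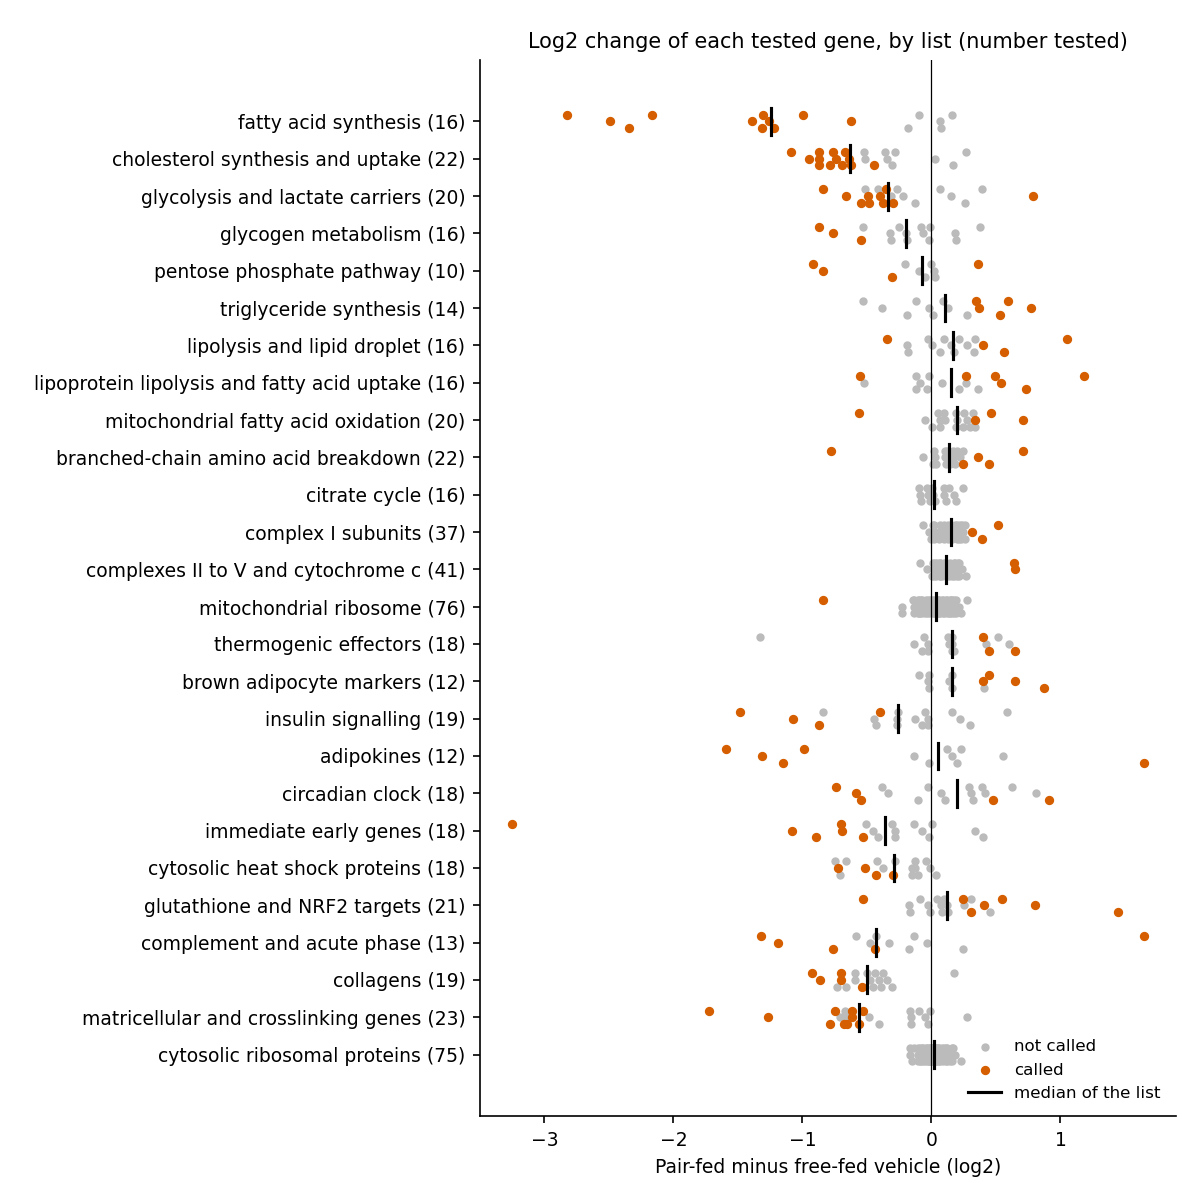
Log2 change of pair-fed over free-fed vehicle samples (x axis) for each tested gene of the lists shown (lines, with the number tested); coloured points were called at an adjusted p under 0.05 and black bars mark list medians. Fatty acid synthesis sits furthest left with a median of -1.24, followed by the cholesterol list at -0.63, and the 75 cytosolic ribosomal protein genes lie close to 0.

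Other genes with large changes at a well expressed level belong to no list above. Among those lower, Prnd, which encodes the prion-like protein doppel, lay at 5.70, 6.73 and 7.28 in free-fed and 3.23, 4.40 and 5.22 in pair-fed samples. It changed by -2.21 ± 0.28 without overlap (adjusted p 2.37e-05); the neighbouring prion gene Prnp changed by -0.42 ± 0.10, and a readthrough row named Prn that overlaps both by -1.33 ± 0.17, so the 3 cannot be fully told apart. Lctl, a klotho-family protein, fell by 1.51 on the log2 scale (adjusted p 5.84e-05). Among those higher, Adtrp, a hydrolase of fatty acid esters of hydroxy fatty acids, lay at 6.50, 6.79 and 7.05 in free-fed and 7.71, 8.07 and 8.54 in pair-fed samples. The groups were well apart and Adtrp was 2.51-fold higher (1.33 ± 0.14, adjusted p 4.32e-06). Acsm3, a medium-chain acyl-CoA synthetase, and Cyp4b1, a cytochrome P450, rose by 1.17 ± 0.20 and 0.996 ± 0.11 (adjusted p 0.000698 and 4.27e-06). Axin2, a target and inhibitor of Wnt signalling, rose by 0.99 ± 0.15, Cntfr, the receptor for ciliary neurotrophic factor, by 0.87 ± 0.21, and Slc26a10 by 0.85 ± 0.10 (adjusted p 0.000139, 0.00979 and 6.92e-06), all without overlap. Among 19 imprinted genes 4 rose, Peg3os, Zim1 (1.08 ± 0.32), Cdkn1c (0.48 ± 0.14) and Zrsr1 (0.33 ± 0.10), and 1 fell. Peg3os, at 8.12, 8.53 and 8.77 and 8.85, 9.61 and 9.94, was 2.13-fold higher without overlap (adjusted p 0.0099); it is antisense to Peg3 (0.16 ± 0.48, adjusted p 0.889), and whether counting used strand is not given in the sources used here. Ndn, necdin, was the 1 that fell (-0.52 ± 0.09, adjusted p 0.000435). The count of those that rose was 1 without Vehicle 3 or 6 or PairFedVehicle 1, 3 or 6, and 2 without Vehicle 1 or 4.

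The pair-fed level was then set beside the levels under the drugs, in contrasts that share the 6 pair-fed samples with the comparison above, so that a deviation of those samples enters both with opposite sign. TZP 3 to 6 stand apart from the other samples: their slopes on transcript length lay between -0.127 and -0.0598, against -0.00161 to 0.0297 in pair-fed samples and 0.0116 to 0.0128 in TZP 1 and 2. Their means of the endothelial markers were 6.96 to 7.40, against 7.68 to 7.85 in pair-fed samples and 7.57 to 7.59 in TZP 1 and 2. The part of these properties in the TZP results was not tested, and the results are given with and without TZP 3 to 6. TZP against pair-fed samples gave 2832 called genes (16.4%), 1448 higher (8.39%) and 1384 lower (8.02%), and LAGIPRA against pair-fed samples 2046 (11.9%), 1260 higher (7.30%) and 786 lower (4.55%). A fit of the TZP and pair-fed samples alone called 1503 genes, and without TZP 3 to 6, which leaves 2 TZP samples, 1031 were called, 701 higher and 330 lower, 703 of them among the 2832. Of the 16 fatty acid synthesis genes, 10 were higher under TZP and 11 under LAGIPRA than in pair-fed samples, and none lower; 10 were higher without TZP 3 to 6. Acly was 2.72 ± 0.28 higher under TZP (adjusted p 1.69e-06) and 3.08 ± 0.28 higher under LAGIPRA (adjusted p 2.57e-07). Scd1 differed from the pair-fed level by 0.00 ± 0.23 under TZP (adjusted p 0.999) and by 0.77 ± 0.23 under LAGIPRA (adjusted p 0.0325); without TZP 3 to 6 it was 0.83 ± 0.24 higher under TZP (adjusted p 0.0444). Of 22 cholesterol genes 15 were higher under each drug and none lower. Of 20 glycolysis and lactate carrier genes 13 were higher under each drug, and 1 was lower under TZP and none under LAGIPRA. Without TZP 3 to 6 the counts higher under TZP were 11 and 12, with none lower. Slc2a4 was 0.99 ± 0.17 and 1.23 ± 0.17 higher under TZP and LAGIPRA than in pair-fed samples (adjusted p 0.000454 and 3.68e-05).

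For several single genes pair-fed samples differed from all 3 other groups. Npr3 was 1.68 ± 0.15 higher under TZP and 1.61 ± 0.15 higher under LAGIPRA (adjusted p 3.16e-07 and 2.57e-07). Gstt2 changed by -1.29 ± 0.09 and -1.36 ± 0.09 (adjusted p 2.46e-08 and 9.39e-09) and Ehhadh by -1.05 ± 0.22 and -1.41 ± 0.22 (adjusted p 0.00251 and 0.000161). Lep was 0.90 ± 0.21 and 1.36 ± 0.21 higher (adjusted p 0.00557 and 0.000161), and Cfd changed by -1.07 ± 0.27 and -1.32 ± 0.27 (adjusted p 0.00888 and 0.0023). Without TZP 3 to 6 Npr3 and Gstt2 were still called against TZP, and Ehhadh (-0.52 ± 0.28, adjusted p 0.285), Lep (0.73 ± 0.28, adjusted p 0.133) and Cfd (-0.99 ± 0.38, adjusted p 0.135) were not. Other genes that fell in pair-fed samples did not differ from the pair-fed level at the threshold under either drug. Ch25h differed by 0.37 ± 0.22 and 0.49 ± 0.22 (adjusted p 0.284 and 0.156), Thbs1 by -0.68 ± 0.32 and 0.30 ± 0.32 (adjusted p 0.164 and 0.609) and Cldn5 by -0.29 ± 0.13 and 0.06 ± 0.13 (adjusted p 0.139 and 0.827). Ucp1 differed from the pair-fed level by 0.05 ± 0.12 under TZP and -0.03 ± 0.12 under LAGIPRA (adjusted p 0.815 and 0.893). The mitochondrial ribosome had 44 of 76 genes higher under TZP and 28 higher under LAGIPRA than in pair-fed samples, with medians of 0.26 and 0.22 and none lower, and 19 higher under TZP without TZP 3 to 6, against the 1 called, lower, between pair-fed and free-fed samples.

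**Figure D4:**
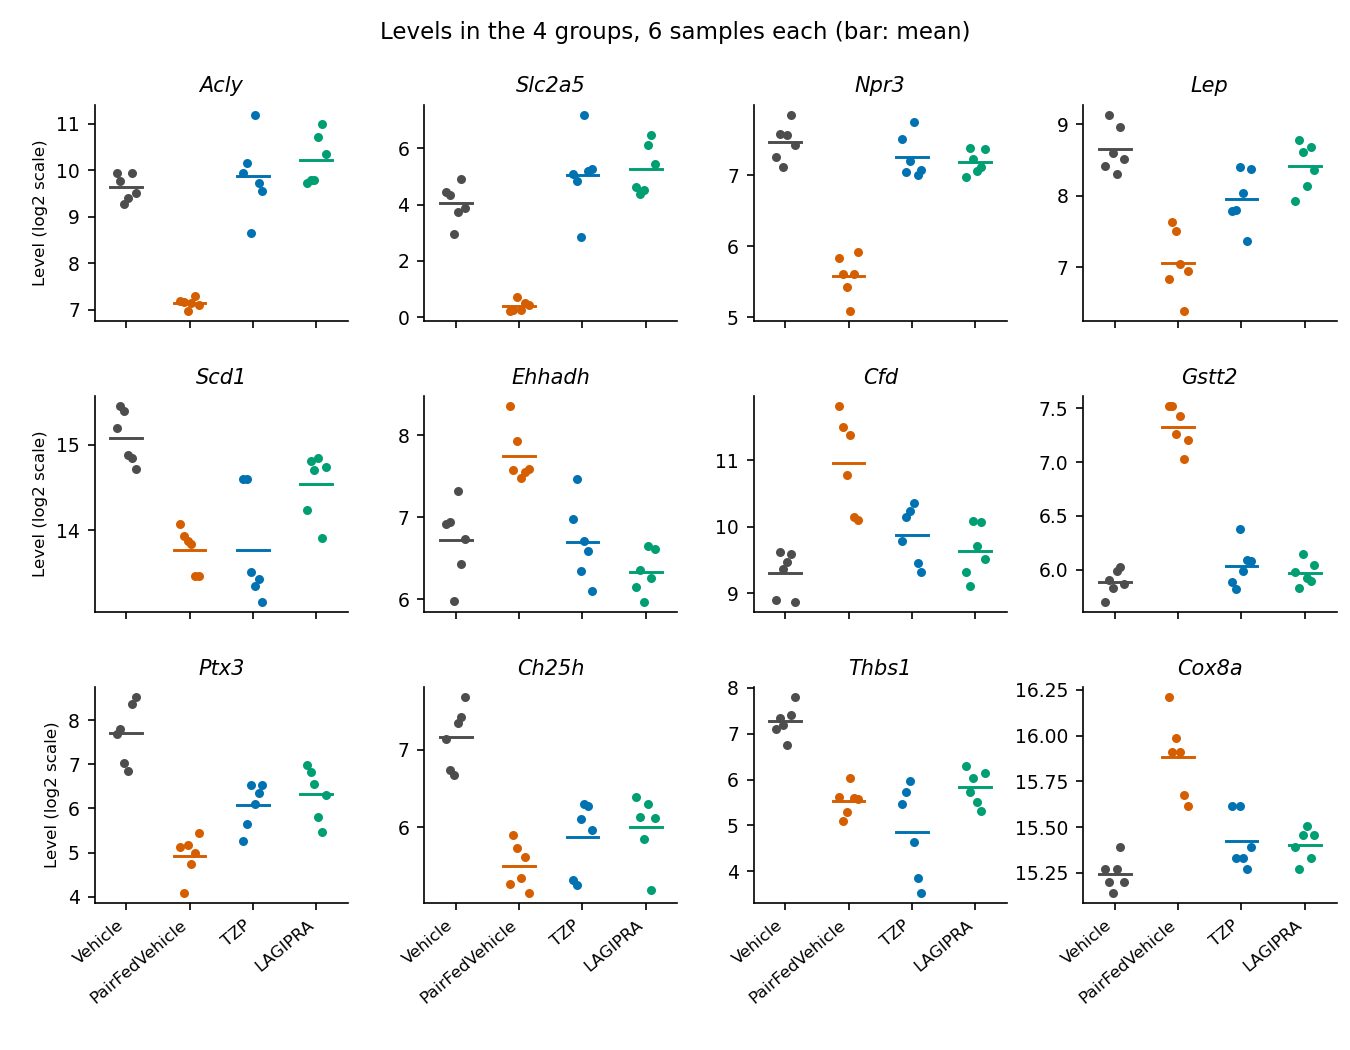
Level (log2 scale) of 12 genes in the 6 samples of each of 4 groups (points) with the group mean (line). Acly, Slc2a5, Npr3 and Lep are lowest and Ehhadh, Cfd, Gstt2 and Cox8a highest in pair-fed samples by the group mean, while Ptx3, Ch25h and Thbs1 are highest in free-fed vehicle samples.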

How the data were processed

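Brown adipose RNA of 24 samples was deposited by the authors as 1 matrix of log2 expression values per gene. Per the submitters' processing notes cutadapt 1.9.1 and GSNAP were used; genome build, annotation, counting and strand are not given in the sources used here. From the values, samples share near-equal quantiles and an offset near 1 appears to have been added before the log2 was taken, which would understate changes of weak genes. Depth is unknown; the most frequent low value (0.89 to 1.35 in free-fed, 1.015 to 1.262 in pair-fed samples) stands in for 1 read.

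Genes with a mean among the lowest 25% (5754 genes, below 2.86) were left out, which left 17263 of 23017. limma 3.58.1 in R 4.3.3 fitted all 24 samples by group, with moderated variances, a mean-variance trend and Benjamini-Hochberg adjustment over all genes tested; a called gene has an adjusted p under 0.05. Plots and counts used Python 3.11.15 and matplotlib 3.10.9. The median SE of a log2 change was 0.15. Data were simulated with normal noise drawn independently for each gene, with 1 spread per gene for all groups. With 100 changed genes per size among 17263, 32% were recovered at a log2 change of 0.5 and 75% at 1. Of the calls in that simulation 5.31% were false. These rates were not tested for the real samples. Library properties were compared by exact two-sided permutation tests over 924 assignments (scipy 1.17.1).

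Members and gene lists were chosen with earlier results of these data known. Genes were named by a rule: the 15 highest and 15 lowest called genes at or above the median level without overlap (predicted models and immune receptor segments passed over), up to 6 called members of each list by p, otherwise up to 2 by smallest p, and a fixed set that holds Ucp1, Lep and Fasn; not every gene so chosen is printed, and members outside the rule that are given for their role (such as Insr, Lipe, Prnp, Peg3 and Slc2a8, mostly not called) were added after their values were seen, as were the genes of the closing observations. Some list members are counted but not reported here by name. List members with no row (14) stay out, and Plin2 names 2 rows. Same-numbered samples of the groups were not treated as pairs. Alternatives were the fit of the 12 samples, other filters, scalings and weights, covariates, the replicate block, each sample left out and, added after seeing the data, TZP 3 to 6 left out of the TZP contrast.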

Additional observations from a re-analysis of the deposited data

Results flagged for a closer look

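Each named gene and each library property was examined within the 6 free-fed and within the 6 pair-fed samples. In 25 of 454 such sets 1 sample stood apart, with a gap to the nearest other sample that exceeded Dixon's critical value as a share of the group's range; chance alone passes it in about 1 in 20 groups.

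In pair-fed samples 1 sample lay above the others for Slc27a2 (9.016, the next at 8.457), Acsm3 (7.214, next 6.809), Thrsp (13.26, next 12.44), Mir5114 (5.833, next 5.399), Hr (5.282, next 5.136), Lss (4.508, next 4.183), Pgd (7.913, next 7.567), Tkt (10.74, next 10.46) and Tie1 (7.856, next 7.658). A single pair-fed sample lay below the others for Dbp (4.802, next 5.636), Gstt1 (6.813, next 7.23), Mvd (3.848, next 4.217) and the mean of the neutrophil markers (3.477, next 3.93).

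In free-fed samples 1 sample was high for Ighm (11.28, next 10.4), Gapdh (10.33, next 9.991), Elovl5 (7.4, next 7.215) and Gipr (3.503, next 2.985). A single sample was low for Col1a1 (8.912, next 9.925), Fabp4 (14.31, next 14.5), Hephl1 (4.666, next 6.058), Ppargc1a (5.048, next 5.421), Serpinh1 (8.324, next 8.494), Slc25a1 (8.181, next 8.686) and the mean of the Schwann cell markers (4.73, next 5.079). The number of genes at the value of 0 reads was 1080 in 1 free-fed sample and 932 in the next.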

How the results depend on the processing

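Of 180 named genes that were called, 130 kept the call under each of 25 alternatives, 50 lost it under at least 1, and none reversed direction. In the fit of the 12 samples alone 154 kept it and 26 lost it. Lost were Apln, Bcat1, Cidea, Col14a1, Col18a1, Cry1, Dgat1, Edem1, Egr1, Fabp4, Hspb1, Ndufa13 and Ndufb3. The rest were Nfil3, Pccb, Pck1, Pdk2, Psma6, Psmd4, Sesn2, Slc2a8, Srebf1, Srebf2, Sult1a1, Thra and Zrsr1. Of the 1487 called genes, 684 changed at least 1.5-fold (303 higher and 381 lower), and 601 had an adjusted p under 0.01 (308 higher and 293 lower). Leaving out 1 sample gave 1049 (without PairFedVehicle 1) to 1620 called genes (without Vehicle 5), 523 to 965 of them higher and 486 to 655 lower; without PairFedVehicle 1 the 523 higher genes compare with 856. The 12 samples alone gave 1316, of which 49.9% were higher against 57.6%, and a covariate for the low value 50.8%. Array weights gave 2173. With TZP and pair-fed samples alone the TZP contrast called 1503, 912 higher and 591 lower, and without TZP 3 to 6, an alternative chosen after seeing the data, 1031, 701 higher and 330 lower, 68.0% of them higher against 51.1%. The values did not show that the numbers of free-fed and pair-fed samples pair them, though a weak pairing could be missed. Deviations of same-numbered samples from their group means had correlations of -0.60 to 0.12, and no free-fed sample matched its own number best. The replicate block called 1299, 731 higher and 568 lower. Depth limits genes near 1 read, and an adjusted p over the threshold does not show that a gene did not differ.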

Other observations

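Some gene groups and single genes outside the lists were looked at after their values were seen, so their counts are descriptions. Of 61 histone cluster genes tested, 23 fell and none rose, 59 changes were below 0 and the median was -0.50; the number called ran from 18 to 25 when 1 sample was left out. Hist1h1e, a linker histone, lay at 7.34, 7.78 and 8.07 in free-fed and 5.80, 6.32 and 6.89 in pair-fed samples, without overlap (-1.40 ± 0.18, adjusted p 2.63e-05 by limma). Most histone cluster transcripts carry no polyA tail and have near-identical copies, so their values in polyA libraries are uncertain. None of 23 cell division genes was called by limma (4 at an unadjusted p under 0.05).

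Of 20 cytochrome P450 genes 6 rose and 1 fell. Cyp2e1, which oxidises ketones and small solvents, was low in free-fed samples at 1.42, 2.91 and 3.69 and lay at 4.29, 4.53 and 5.80 in pair-fed samples, apart from them (2.10 ± 0.45, adjusted p 0.00507). Hephl1, a copper-dependent ferroxidase related to ceruloplasmin, went from 4.67, 6.39 and 6.66 to 1.06, 2.36 and 4.13 without overlap (-3.70 ± 0.47, adjusted p 2.37e-05). Tph2, the tryptophan hydroxylase of neurons, went from 5.34, 5.60 and 6.43 to 2.07, 2.78 and 3.94 (-2.81 ± 0.31, adjusted p 5.65e-06). Atp4b, a subunit of the gastric proton pump, ran at 2.91, 3.85 and 4.36 in free-fed and 0.00, 0.00 and 0.51 in pair-fed samples; the pair-fed values lie under the value taken for 1 read, so no fold is given. Aacs, which activates acetoacetate for lipid synthesis, changed by -1.31 ± 0.19 (adjusted p 0.000126) without overlap, and Acot1, a cytosolic acyl-CoA thioesterase, by 1.19 ± 0.21 (adjusted p 0.000875).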
